A study of Mus musculus with 24 samples.

Results

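Transcripts of T cells and natural killer (NK) cells were followed in RNA from sorted tumor macrophages. The 10 genes, of 55487 in the count table, were Nkg7, Il2rb, Gzma, Gzmb, Prf1, Cd3e, Cd3g, Klrd1, Ncr1 and Cd8a. They were picked by gene symbol with earlier results of these counts known, and each low gene was judged by its own measured value, the ratio of its counts to an expected background. That ratio is therefore given as a description, with no test. The levels between tumors come from the same counts, so their tests are no independent support for the choice of genes.

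T cells recognise peptides through the T cell receptor, which signals through the CD3 chains, and cytotoxic T cells add the co-receptor CD8. NK cells recognise targets through germline-encoded activating and inhibitory receptors. Both kinds of lymphocyte kill by releasing perforin and granzymes from granules, and both respond to interleukin 2 and interleukin 15 through a shared receptor chain. In tumors these cells lie close to macrophages, which carry CD11b and F4/80 and do not rearrange or assemble a T cell receptor.

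The series compared macrophages of APC-KO MC38 tumors (tumor 2 and tumor 1) with macrophages of APC-WT MC38 tumors (tumor 2 and tumor 1), with 6 libraries per tumor and 24 in all. MC38 is a mouse colon carcinoma line, and the knockout of Apc, a negative regulator of Wnt signalling, was a property of the tumor and not of the host: all tumors grew orthotopically in C57BL/6J mice. CD45+ CD11b+ F4/80+ cells were sorted, and the stains named in the protocols held no T or NK cell marker. Ages, sexes, how Apc was deleted and how many mice each tumor label stands for are not given in the sources used here, and each genotype rests on 2 tumors.

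The libraries differed in depth and in background. Summed counts were 91084172 in APC-KO tumor 2 and 76507424 in APC-KO tumor 1, against 219243647 in APC-WT tumor 2 and 488977630 in APC-WT tumor 1. Olfactory and vomeronasal receptor genes, which macrophages are not expected to express, were used to set a background per kilobase of exon. It accounted for an expected 17.8% and 17.5% of all counts in APC-KO tumors 2 and 1, and for 5.02% and 0.742% in APC-WT tumors 2 and 1. Loci like a satellite repeat held 38.5% and 37.9% of counts in APC-KO tumors 2 and 1, and 7.08% and 1.32% in APC-WT tumors 2 and 1. Clearly expressed genes held 31.9% and 33.2% in APC-KO tumors 2 and 1, and 73.7% and 81.8% in APC-WT tumors 2 and 1. Levels below are scaled CPM, a CPM taken over the counts of the 3967 clearly expressed genes after scaling between libraries, and "excess" is the scaled CPM above the expected background. All 12 macrophage and sort markers examined, among them Lyz2 and C1qb, lay above the background limit in each of the 4 tumors.

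Promoters are shown for 3 killing-related genes that behaved unlike each other: Nkg7 and Gzmb, which were higher in APC-KO tumor 2 than in tumor 1, and Gzma, which stayed at background in both. The letters are the 250 bases before the RefSeq start on GRCm38.p6, 5′ to 3′ on the gene's strand. Capitals mark the RUNX letters TGTGGT and the T-box letters GGTGTGA, or their reverse complements ACCACA and TCACACC. RUNX and T-box factors are known regulators of cytotoxic lymphocyte genes.
Nkg7: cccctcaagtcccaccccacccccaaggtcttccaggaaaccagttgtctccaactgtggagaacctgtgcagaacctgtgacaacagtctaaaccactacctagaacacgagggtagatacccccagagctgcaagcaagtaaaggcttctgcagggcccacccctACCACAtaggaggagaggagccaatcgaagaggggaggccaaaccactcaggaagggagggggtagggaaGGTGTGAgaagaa
Gzmb: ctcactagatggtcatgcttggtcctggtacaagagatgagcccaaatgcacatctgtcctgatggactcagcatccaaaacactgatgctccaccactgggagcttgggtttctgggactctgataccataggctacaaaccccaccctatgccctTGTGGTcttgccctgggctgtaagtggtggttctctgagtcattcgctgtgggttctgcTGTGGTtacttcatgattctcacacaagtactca
Gzma: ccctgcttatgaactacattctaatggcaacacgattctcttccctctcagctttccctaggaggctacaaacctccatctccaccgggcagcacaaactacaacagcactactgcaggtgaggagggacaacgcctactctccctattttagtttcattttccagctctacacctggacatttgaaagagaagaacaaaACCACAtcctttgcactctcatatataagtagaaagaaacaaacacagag
The windows lie at chr7:43436888-43437137 (plus strand), chr14:56262335-56262584 (minus strand) and chr13:113100982-113101231 (minus strand). Nkg7 held 1 RUNX match starting 83 bases and 1 T-box match starting 13 bases before the start, Gzmb held RUNX matches at 93 and 34 bases, and Gzma held 1 at 50 bases. The gene positions given below are from GENCODE and differ from these RefSeq starts for Nkg7 and Gzmb. Nkg7 there starts at 43437073, so its T-box match lies inside that gene. Gzmb there ends at 56262260, so its RefSeq start lies upstream of that gene. The RUNX letters occur in 14.0% of 32851 promoter windows of this length and the T-box letters in 3.33%. Of the 8 genes with a promoter entry, Prf1 and Ncr1 also held RUNX letters, while the windows of Cd3e, Cd3g and Cd8a held neither motif. These are matches of letters and not binding sites.

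Most T and NK cell transcripts passed a limit on the ratio to background in both APC-WT tumors. In the APC-KO tumors they did so mainly in tumor 2. The limit was the 95th percentile of the ratio of observed to expected counts among 1466 receptor genes, which was 2.29 and 2.25 in APC-KO tumors 2 and 1 and 1.79 and 2.42 in APC-WT tumors 2 and 1. In APC-KO tumor 2, 7 of 10 genes lay above the limit, where 46.8% of coding genes other than receptors did. In APC-KO tumor 1, 1 of 10 did, against 47.2% of coding genes. In both APC-WT tumors 9 of 10 did, against 61.5% in tumor 2 and 70.1% in tumor 1. The gene missing from both was Ncr1, and the 1 gene above the limit in APC-KO tumor 1 was Prf1. In APC-KO tumor 2 the genes above the limit that lay closest to it were Cd8a at a ratio of 2.30 and Klrd1 at 2.41, and the highest gene under it was Cd3e at 1.60. Because the limit is a multiple of the background, passing it does not rank the tumors by level. For Il2rb the expected background was 16.6 scaled CPM for APC-KO tumor 1 but 0.323 for APC-WT tumor 1. Summed over the 10 genes, the level was 139 scaled CPM over an expected 92.2 for APC-KO tumor 1. It was 46.2 over an expected 1.81 for APC-WT tumor 1. The summed excess was 46.7 ± 8.97 and 44.4 ± 2.83 respectively (SD, n = 6 libraries each). The SD leaves out how far single genes depart from the expected background, so these sums do not show equal levels. In bulk RNA, fewer cells of a type and less RNA per cell cannot be told apart.

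**Figure D1:**
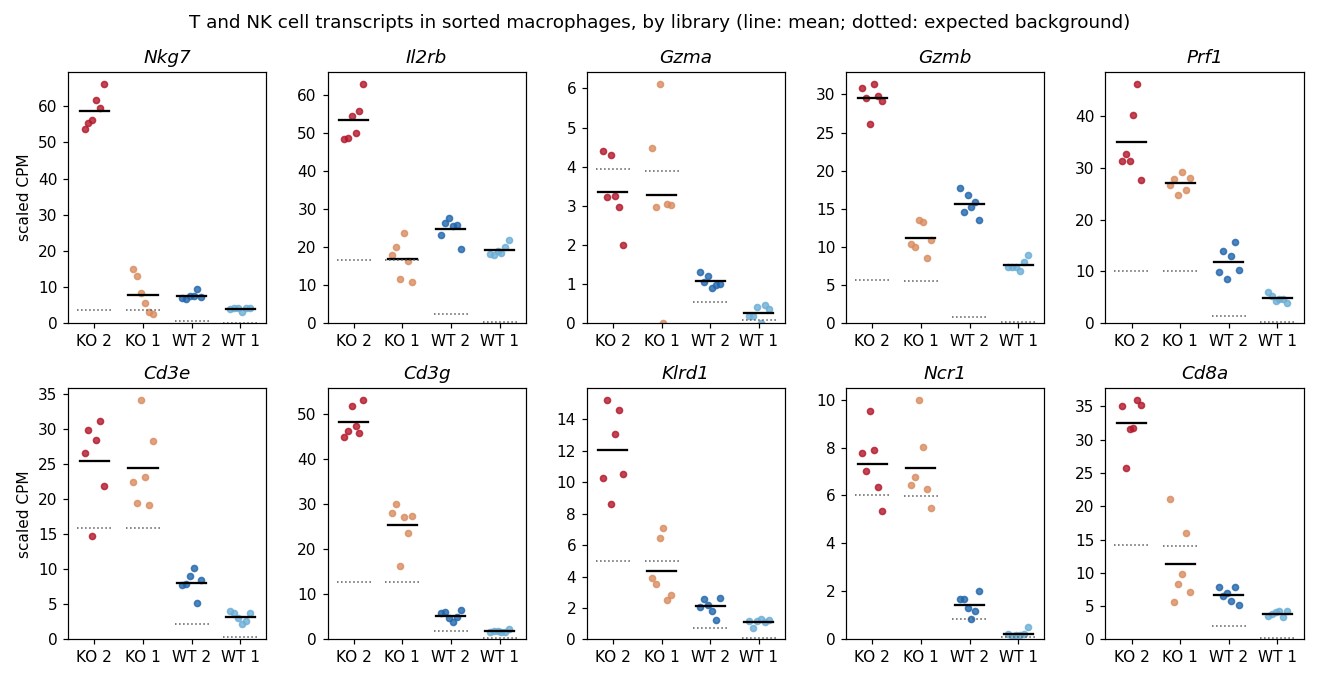
Scaled CPM of the 10 genes in each library (points, 6 per tumor), with the mean (solid line) and the expected background (dotted line); tumors run APC-KO tumor 2, APC-KO tumor 1, APC-WT tumor 2 and APC-WT tumor 1. Nkg7 averaged 58.8 in APC-KO tumor 2 and at most 7.87 in any other tumor, while Gzma lay near its dotted line in both APC-KO tumors.

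Between the APC-KO tumors, 6 of the 10 genes were higher in tumor 2 and none was lower, all 10 differences being positive. These were Nkg7, Il2rb, Cd8a, Klrd1, Gzmb and Cd3g, and in each of them all 6 libraries of tumor 2 lay above all 6 of tumor 1. With the expected background subtracted from each library, 6 of the 9 genes tested were called higher, where 2.30% of all genes tested in that fit were. The differences then were larger: 4.26 for Il2rb, 3.68 for Nkg7, 3.63 for Klrd1, 3.62 for Cd8a, 2.10 for Gzmb and 1.45 for Cd3g on the log2 scale. Counts that fell below the expected background were set to 0 in that fit. The mean excess in APC-KO tumor 1 was 0.317 scaled CPM for Il2rb, -0.536 for Klrd1 and -2.61 for Cd8a. The sizes of their differences after subtraction are therefore poorly determined. Counts as deposited are used in the rest of the text unless the subtraction is named. Over the 45451 genes tested on them, 1.38% were called higher, 1.31% lower, and 0.895% had all tumor 2 libraries above all tumor 1 libraries. The median of the 10 genes was 1.17 on the log2 scale, against 0.02 over all genes tested. Calls are from edgeR's quasi-likelihood test over libraries with Benjamini-Hochberg adjustment. The fit shared the spread of each gene over all 24 libraries, so its SEs are not those of the APC-KO tumors alone. Nothing in the labels says that the libraries of a tumor came from separate animals, so these p-values measure the spread between libraries of a tumor, which may be technical, and say nothing of how tumors of 1 genotype vary. The background did not differ between these tumors as it did between genotypes: the expected share was 17.8% in tumor 2 and 17.5% in tumor 1.

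Of the CD3 chains among the 10 genes, Cd3g passed the test between the APC-KO tumors and Cd3e did not. Cd3g encodes the gamma chain, which assembles with epsilon in the receptor complex (chromosome 9, 44969572 to 44980431, GRCm38). Its lowest, median and highest levels were 45.0, 46.9 and 53.2 scaled CPM in APC-KO tumor 2 and 16.4, 27.4 and 30.1 in APC-KO tumor 1, over an expected 12.8 and 12.7. They were 3.85, 5.36 and 6.57 in APC-WT tumor 2 and 1.54, 1.81 and 2.35 in APC-WT tumor 1, over an expected 1.77 and 0.247. The 2 APC-KO tumors did not overlap, and tumor 2 was higher by 0.92 ± 0.136 on the log2 scale (SE, 6 libraries each, edgeR adjusted p = 3.76e-05). Cd3e, the epsilon chain (chromosome 9, 44998740 to 45009627), lies in the same cluster. Its levels were 14.8, 27.5 and 31.1 in APC-KO tumor 2 and 19.2, 22.8 and 34.1 in APC-KO tumor 1, over an expected 15.9 and 15.8. They were 5.23, 8.16 and 10.2 in APC-WT tumor 2 and 2.13, 3.46 and 3.98 in APC-WT tumor 1. At 1.60 and 1.54 times background in APC-KO tumors 2 and 1, Cd3e was under the limits. Its lack of a call therefore does not show that it behaved unlike Cd3g. The APC-KO tumors overlapped throughout for Cd3e, with a log2 difference of 0.06 ± 0.192 (edgeR adjusted p = 1.00). Cd3e shares 3.31% of its exon bases with an antisense gene, Gm48719, and the strand setting of the counting is not given in the sources used here.

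Cd8a, the alpha chain of the CD8 co-receptor (chromosome 6, 71373427 to 71379173), reached 25.7, 33.4 and 36.0 scaled CPM in APC-KO tumor 2 and 5.69, 9.11 and 21.04 in APC-KO tumor 1. In APC-WT tumor 2 it read 5.14, 6.75 and 7.85, and in APC-WT tumor 1 3.29, 3.95 and 4.31. The expected background was 14.2 and 14.1 in APC-KO tumors 2 and 1, so tumor 1 averaged 2.61 below it and tumor 2 averaged 18.4 ± 3.92 above it (SD, n = 6). The difference of tumor 2 over tumor 1 was 1.51 ± 0.211 on the log2 scale (edgeR adjusted p = 1.42e-05). With the expected background subtracted it was 3.62 ± 0.691 (edgeR adjusted p = 0.00115).

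Klrd1, also known as CD94, pairs with NKG2 proteins into receptors for a non-classical class I molecule (chromosome 6, 129591782 to 129598775). It read 8.60, 11.8 and 15.2 scaled CPM in APC-KO tumor 2 and 2.48, 3.72 and 7.09 in APC-KO tumor 1, over an expected 5.01 and 4.97. In APC-WT tumor 2 it read 1.26, 2.15 and 2.65, and in APC-WT tumor 1 0.714, 1.16 and 1.30. The APC-KO tumors did not overlap, and the log2 difference was 1.49 ± 0.252 (edgeR adjusted p = 0.000245), and 3.63 ± 0.765 with the expected background subtracted (edgeR adjusted p = 0.00327). Ncr1, or NKp46, is an activating receptor that marks NK cells and some innate lymphoid cells (chromosome 7, 4337724 to 4345164). It had 5.34, 7.40 and 9.54 in APC-KO tumor 2 and 5.46, 6.61 and 9.98 in APC-KO tumor 1, over an expected 6.02 and 5.97. In APC-WT tumor 2 it had 0.860, 1.48 and 2.02, and in APC-WT tumor 1 0.122, 0.204 and 0.516. Ncr1 thus stayed under the limit in all 4 tumors, at 1.22 and 1.18 times background in APC-KO tumors 2 and 1 and 1.70 and 2.08 times in APC-WT tumors 2 and 1. Its APC-KO levels overlapped, with a log2 difference of 0.05 ± 0.258 (edgeR adjusted p = 1.00).

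Il2rb encodes the beta chain shared by the receptors for interleukin 2 and interleukin 15 (chromosome 15, 78479256 to 78495271). Its levels were 48.6, 52.4 and 63.0 scaled CPM in APC-KO tumor 2, over an expected 16.8, and 10.9, 17.1 and 23.8 in APC-KO tumor 1, over an expected 16.6. They were 19.6, 25.7 and 27.7 in APC-WT tumor 2 and 18.0, 18.8 and 21.8 in APC-WT tumor 1, over an expected 2.33 and 0.323. APC-KO tumor 1 was therefore at background, with an excess of 0.317 ± 4.78 (SD, n = 6), while APC-KO tumor 2 had an excess of 36.8 ± 5.73. The log2 difference of tumor 2 over tumor 1 was 1.67 ± 0.140 (edgeR adjusted p = 1.02e-09), and 4.26 ± 0.510 with the expected background subtracted (edgeR adjusted p = 1.79e-06).

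Nkg7 had the largest log2 difference of the 10 genes between the APC-KO tumors on counts as deposited. With the expected background subtracted, Il2rb read 4.26 ± 0.510, Nkg7 3.68 ± 0.559, Klrd1 3.63 ± 0.765 and Cd8a 3.62 ± 0.691 (SE). These values overlapped within their SEs, so no order is drawn from them. Nkg7 encodes a granule membrane protein of NK cells and cytotoxic T cells that takes part in granule release (chromosome 7, 43437073 to 43438249). It had 256 to 397 counts per library and 53.6, 57.9 and 66.2 scaled CPM in APC-KO tumor 2, against 13 to 53 counts and 2.45, 6.93 and 14.9 scaled CPM in APC-KO tumor 1. The APC-WT tumors read 6.67, 7.46 and 9.48 in tumor 2 and 3.09, 4.09 and 4.25 in tumor 1. The libraries of APC-KO tumor 2 lay above every library of the other 3 tumors. Tumor 2 exceeded tumor 1 by 2.98 ± 0.259 on the log2 scale (edgeR adjusted p = 2.30e-09), which ranked 1 by size among the 625 genes called higher. Within APC-KO tumor 1 the Nkg7 counts varied 17.0 times as much as counting alone gives, where the median of 20207 coding genes with 80 to 8000 counts was 4.25. In APC-KO tumor 2 that ratio was 2.07, against a median of 3.51. By library number, Nkg7 in APC-KO tumor 1 fell at each step, from 3.99 times background in library 1 to 0.741 times in library 6. The cause of this order was not tested.

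The granule proteins split as the CD3 chains did. Gzmb encodes granzyme B, a protease that triggers apoptosis in the target cell (chromosome 14, 56258838 to 56262260). It read 26.2, 29.7 and 31.4 scaled CPM in APC-KO tumor 2 and 8.59, 10.6 and 13.5 in APC-KO tumor 1, over an expected 5.61 and 5.57. In APC-WT tumor 2 it read 13.6, 15.6 and 17.7, and in APC-WT tumor 1 6.84, 7.42 and 8.99. The APC-KO tumors did not overlap and differed by 1.42 ± 0.118 on the log2 scale (edgeR adjusted p = 8.49e-10).

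Prf1 encodes perforin, which forms the pore through which granzymes pass (chromosome 10, 61297833 to 61304680). Its levels were 27.7, 32.1 and 46.3 scaled CPM in APC-KO tumor 2 and 24.8, 27.3 and 29.3 in APC-KO tumor 1, over an expected 10.1 and 10.02, and the tumors overlapped. In APC-WT tumor 2 they were 8.47, 11.7 and 15.7, and in APC-WT tumor 1 3.81, 4.63 and 6.05. The difference between the APC-KO tumors was 0.37 ± 0.149 on the log2 scale and did not pass (edgeR adjusted p = 0.360).

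Gzma, encoding granzyme A (chromosome 13, 113093825 to 113100981), had few counts anywhere. Its levels were 2.00, 3.25 and 4.40 scaled CPM in APC-KO tumor 2 and 0, 3.04 and 6.12 in APC-KO tumor 1, both about the expected 3.93 and 3.90. In APC-WT tumor 2 it read 0.911, 1.03 and 1.30 and in APC-WT tumor 1 0, 0.277 and 0.473, over an expected 0.546 and 0.0759. Library 4 of APC-KO tumor 1 and library 4 of APC-WT tumor 1 list Gzma at 0. A 0 in some library occurred in 0.465% of coding genes with 80 to 8000 counts in APC-KO tumor 1 and in 1.38% in APC-WT tumor 1. Gzma had 83 and 101 counts in these tumors, near the low end of that range. The shares are therefore not those of genes with as few counts as Gzma. The APC-KO tumors differed by 0.07 ± 0.503 on the log2 scale (edgeR adjusted p = 1.00).

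**Figure D2:**
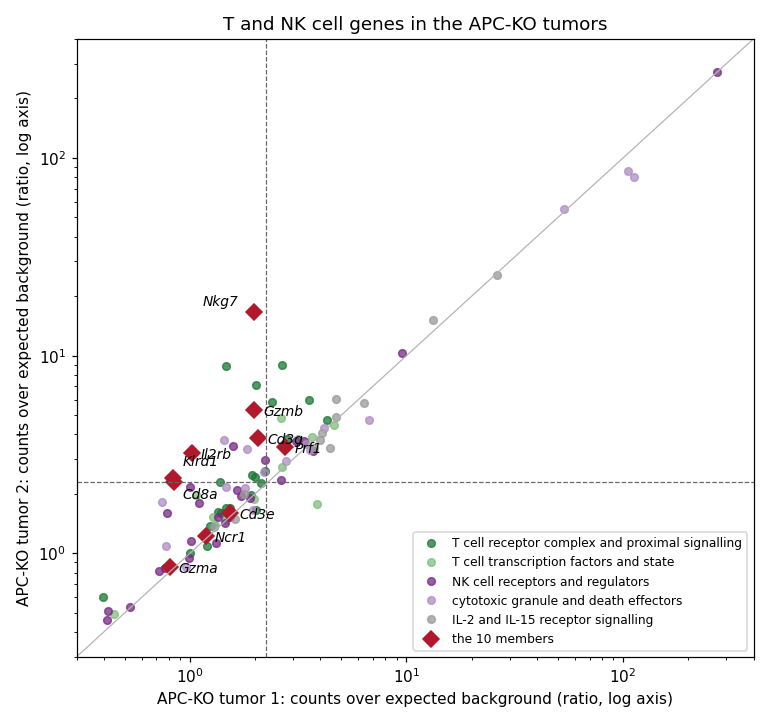
Ratio of counts to expected background in APC-KO tumor 2 (vertical, log axis) and APC-KO tumor 1 (horizontal, log axis) for the 10 genes (diamonds) and genes of 5 T and NK cell lists (circles); dashed lines mark the limits of 2.29 and 2.25 and the grey line equal ratios. Nkg7 lies at 16.7 and 1.98, far above the line, whereas Gzma, Ncr1 and Cd3e lie on it or close to it.

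Related genes were read from 5 lists, and most of their genes did not pass the test between the APC-KO tumors. Of 22 T cell receptor and proximal signalling genes, 6 were higher in tumor 2 and none lower: Trbc2, Trac, Trbc1, Cd8b1, Lck and Zap70, by 2.60, 1.85, 1.78, 1.31, 0.77 and 0.48 on the log2 scale. Trac and Trbc2 encode constant regions of the receptor's alpha and beta chains, and Trbc1 and Trbc2 are near-identical copies whose counts may be split. Cd8b1 is the partner chain of Cd8a, and Lck and Zap70 are the kinases that act first after receptor engagement. Cd3d and Cd247, which complete the CD3 complex, differed by 0.71 and 0.68 without passing (edgeR adjusted p = 0.110 and 0.0820). Cd247 shares 56.4% of its exon bases with Pou2f1 on the other strand. Cd4, the co-receptor of helper T cells, was at 1.38 and 1.24 times background in APC-KO tumors 2 and 1, inside the range of receptor genes.

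Among 12 genes of T cell state, Pdcd1 and Ctla4, inhibitory receptors of activated T cells, were higher in APC-KO tumor 2 by 0.90 and 0.89, and Il7r, a cytokine receptor of naive and memory cells, was lower with a log2 change of -1.09. Of 25 NK cell genes, 4 were higher and none lower: Sh2d2a, Klra4, Klrc1 and Cd244a, by 1.19, 1.14, 1.11 and 0.28. Klrc1 encodes NKG2A, the inhibitory partner of Klrd1. Klra4 belongs to a family of close paralogs, so its counts are uncertain. Of 17 granule and death effector genes, Ctsw, Ifng, Cst7 and Serpinb9 were higher by 1.44, 1.33, 0.93 and 0.57, and Srgn, Ctsc and Stx11 were lower with changes of -0.44, -0.27 and -0.49. Ifng encodes interferon gamma, the main macrophage-activating cytokine of these lymphocytes, and Srgn encodes a granule proteoglycan that myeloid cells also make. Of 12 genes of interleukin 2 and 15 signalling, none was higher and Cish was lower with a change of -0.34. Zap70, Trbc1, Ctla4, Sh2d2a, Klra4, Klrc1, Ctsw, Cst7, Serpinb9, Stx11 and Cish were named after their values were seen. Il2rg, the common gamma chain that pairs with Il2rb and shares 30.5% of its exon bases with Gm20489, read 237 ± 22.6 scaled CPM in APC-KO tumor 2 and 237 ± 15.5 in APC-KO tumor 1 (SD, n = 6 each), with a log2 difference of -0.00389 ± 0.0504. The NK cell receptor genes Klrk1 and Klrb1c were at 1.90 and 1.53 times background in APC-KO tumor 2 and at 1.90 and 1.35 times in APC-KO tumor 1, under the limits. Fasl, a death ligand, and Gzmk, another granzyme, were also under the limits, at 0.858 and 1.67 times in tumor 2 and 0.959 and 1.96 times in tumor 1. Il15, which myeloid cells present to NK cells, was at 4.05 times in tumor 2 and 4.08 times in tumor 1. Each list's calls stand against the same 1.38% higher and 1.31% lower over all genes tested.

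Markers of other cells also moved between the APC-KO tumors. Of 7 fibroblast and endothelial markers, 4 collagen or matrix genes were higher in tumor 2 and none lower, among them Col3a1 by 0.85 and Col1a1 by 0.49. The list's summed level was 618 to 676 scaled CPM in tumor 2 and 397 to 536 in tumor 1. Of 6 epithelial markers 2 were higher, with sums of 227 to 268 in tumor 2 and 190 to 231 in tumor 1. Of 8 neutrophil markers 4 were lower, among them S100a9 and S100a8 with changes of -1.38 and -1.22, with sums of 244 to 286 in tumor 2 and 439 to 508 in tumor 1. Of 12 macrophage markers 4 were higher and 2 lower, with sums of 32445 to 32961 and 30979 to 32232. None of 7 B and plasma cell, 8 dendritic cell or 8 eosinophil and mast cell markers was called. Their part in the T and NK cell result was not tested.

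Summed over the 10 genes, the excess was 212 ± 17.3 scaled CPM in APC-KO tumor 2 and 46.7 ± 8.97 in APC-KO tumor 1, against 71.1 ± 4.31 in APC-WT tumor 2 and 44.4 ± 2.83 in APC-WT tumor 1 (SD, n = 6 libraries). The 6 libraries of APC-KO tumor 2 ranged from 194 to 237, above those of every other tumor, whose highest was 75.1. APC-KO tumor 1, at 36.5 to 58.4, overlapped APC-WT tumor 1, at 40.6 to 49.4. Both ranges leave out the error of the expected background, which was 92.2 scaled CPM in APC-KO tumor 1 and 1.81 in APC-WT tumor 1. The makeup of the excess also varied. Shares are of the excess summed over the genes above their expected background. Nkg7 led in APC-KO tumor 2 with 25.9% of it and Prf1 in APC-KO tumor 1 with 34.0%, while Il2rb led in both APC-WT tumors with 31.4% in tumor 2 and 42.6% in tumor 1. Per kilobase of exon, excess was highest for Nkg7 in APC-KO tumor 2 (60.4 scaled CPM per kb), for Prf1 in APC-KO tumor 1 (6.64), and for Gzmb in APC-WT tumor 2 (10.3) and APC-WT tumor 1 (5.27). In that order by length, Gzmb followed Nkg7 in APC-KO tumor 2 at 16.6 per kb.

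**Figure D3:**
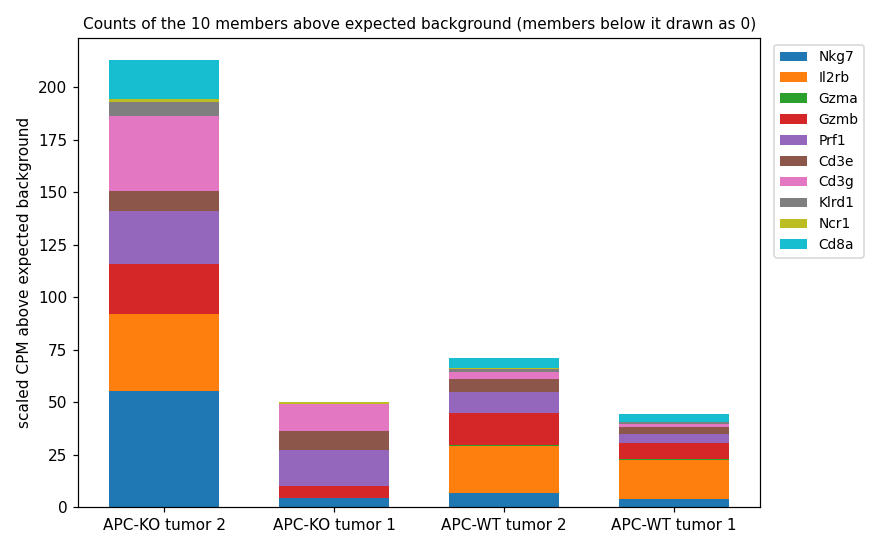
Scaled CPM above expected background, stacked over the 10 genes, in each tumor (mean of 6 libraries; genes below background drawn as 0). Nkg7 is the largest piece in APC-KO tumor 2, at 55.2, and that tumor stands above the other 3.

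The genotype comparison asks whether these transcripts differ with the genotype of the tumor that the macrophages came from, and it gave no result about these genes beyond the background. Of the 10 genes, 5 were called higher in APC-KO and none lower, where 56.0% of the 53705 genes tested were called higher and 2.53% lower. The median of the 10 was 2.23 on the log2 scale, against 3.57 over all genes tested. The tests set 2 APC-KO tumor sums against 2 APC-WT tumor sums. Cd3g differed by 3.41 ± 0.655 (edgeR adjusted p = 0.00398), Nkg7 by 2.57 ± 0.873 (0.0347), Cd3e by 2.16 ± 0.638 (0.0220), Cd8a by 2.11 ± 0.709 (0.0336) and Prf1 by 1.96 ± 0.567 (0.0206). Ncr1, Klrd1, Gzma, Gzmb and Il2rb did not pass, at 3.12, 2.35, 2.30, 0.84 and 0.71. After the expected background had been subtracted from each tumor, Cd3g at 3.50 and Prf1 at 1.74 still passed as higher, where 65.3% of the 37309 genes tested in that fit did, with a median of 3.67. In that fit Gzma was called lower at -8.66, where both APC-KO sums had been set to 0 by the subtraction. The median log2 difference of expressed genes also moved with exon length, being 1.43 up to 1000 bases and -0.52 over 4000 bases. None of the 10 genes is in that expressed set, so no length-corrected value is given for them.

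The calls moved with single tumors, and so did the share over all genes. Without APC-KO tumor 2, none of the 10 genes was called by edgeR, while 5263 of 53613 genes were called higher. Gzmb then had a change of -0.10 and Il2rb of -0.40, and Nkg7 of 0.27. Without APC-KO tumor 1, 2 were called, where 10.3% of all genes were called higher. Without APC-WT tumor 1, 8 were called, where 92.3% were, and without APC-WT tumor 2, 9, where 93.0% were. In these fits the lone tumor was assumed to vary like those of the other genotype. Scaled by TMM over all genes, none was called and all 10 changes were negative, from -0.14 for Cd3g to -3.20 for Il2rb. The median expressed gene was at -4.0 on that scale, so each of the 10 lay above it.

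**Figure D4:**
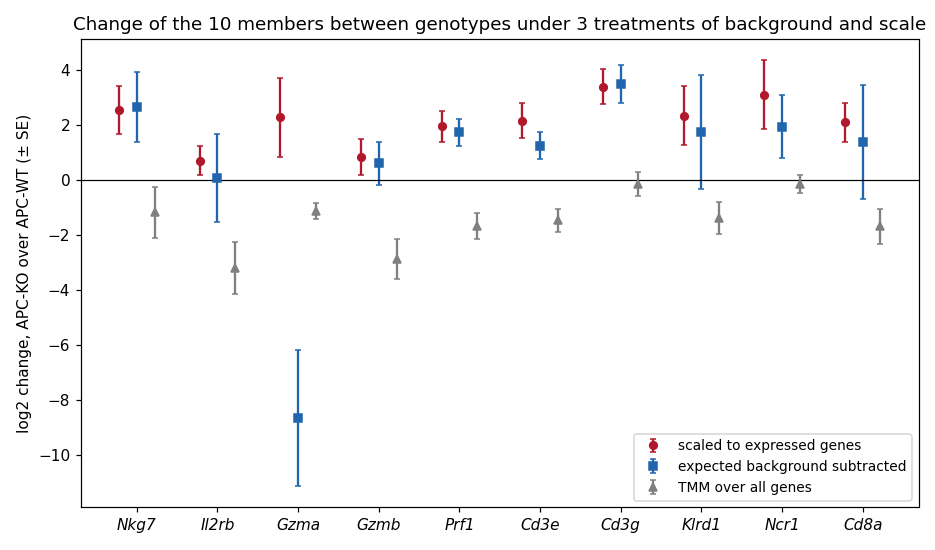
Log2 change of the 10 genes in APC-KO over APC-WT tumors (points ± SE, 2 tumors each) with libraries scaled to expressed genes, with the expected background subtracted, and with TMM over all genes. Nkg7 is at 2.57, 2.67 and -1.17 under these, so its sign depends on the scale, and the same holds for the other genes.

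Between the APC-WT tumors all 10 genes were called higher in tumor 2, where 80.4% of the genes tested were called higher and 3.81% lower. The share of expected background was 5.02% in tumor 2 and 0.742% in tumor 1. Scaled by TMM over all genes, 1 of the 10 was called higher and 3 lower, and 7 of the 10 changes were negative, among them Il2rb at -0.98 and Cd8a at -0.55, with the median expressed gene at -1.31. With the expected background subtracted from each library, 3 of the 9 genes that could be tested were called higher, where 28.1% of the 32112 genes tested in that fit were: Prf1 by 1.20, Cd3g by 1.14 and Gzmb by 1.00. Gzmb had an excess of 14.8 ± 1.49 scaled CPM in APC-WT tumor 2 and 7.57 ± 0.751 in APC-WT tumor 1 (SD, n = 6 each). Il2rb had the highest scaled CPM of the 10 in both, though Gzmb had the highest excess per kilobase of exon. The excess of Il2rb was 22.3 ± 2.94 in tumor 2 and 18.9 ± 1.44 in tumor 1. Its log2 difference after subtraction was 0.26 (edgeR adjusted p = 0.653).

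Prf1 was the 1 gene of the 10 above the limit in all 4 tumors, so its profile was the one used to look for like genes. The expressed genes whose centred log2 levels over the 4 tumors lay closest to it were Ppp1r14b, S100a6, Rcc2, Zfp771 and Denr, with root mean square differences of 0.270 to 0.339 on the log2 scale. Ppp1r14b had a mean level of 58.4 in APC-KO tumor 2, 66.7 in APC-KO tumor 1, 19.5 in APC-WT tumor 2 and 12.03 in APC-WT tumor 1, in scaled CPM. Over 4 points this is a description only.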

How the data were processed

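The deposited file holds raw counts of 55487 Ensembl genes for each of 24 libraries. The submitters' processing notes name the build mm9 and the tools StringTie, HISAT2 and bcl2fastq (2.20.0), and nothing on their roles, settings, strand or annotation. Per the labels' protocols, sorted cells went into an ultra low input Nextera XT protocol with 6 replicates of each sample. Names, lengths and positions came from GENCODE M21 (GRCm38) by gene ID, with 55227 matched, and promoters from RefSeq (GRCm38.p6).

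Expected background was the count per kilobase of union exon over 1135 Olfr and 331 Vmn genes. Genes counted as expressed where their mean reached 10 CPM and 10 times background, leaving out 12 loci that share 15-base words with a satellite-like transcript, and their TMM-scaled totals set library sizes. Fits used edgeR 4.0.16 (quasi-likelihood, filterByExpr, Benjamini-Hochberg at 0.05) in R 4.3.3: tumor sums for genotype, libraries for tumors within a genotype. Alternatives included DESeq2 1.42.0 and limma 3.58.1, and the fits were tested on simulated data. Figures used matplotlib 3.10.9. Counts per library ran from 8895722 to 93568353, and values of low genes are limited by counting.

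The genes and the gene lists were chosen with earlier results of these data known. Genes set to be named from the lists were Cd3d, Cd247, Trac, Cd4, Cd8b1, Klrb1c, Klrk1, Fasl, Ifng, Gzmk, Il2rg and Il15, up to 4 per list with the highest ratio to background, and the 2 highest per kilobase of each other marker list. Not all of these are named above, and Fyn, Tyrobp, Jak1 and Krt8 are among those left out. Others are said to be chosen after their values were seen. Library numbers did not pair libraries across tumors: of 36 same-numbered pairs 8 correlated above 0.1, and 5 of 24 libraries had their best match at their own number.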

Additional observations from a re-analysis of the deposited data

Results flagged for a closer look

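In 4 of 40 groups of 6 libraries, 1 library lay far from the other 5, where chance gives about 1 in 20. All were in APC-WT tumors. For Nkg7, library 5 of APC-WT tumor 2 read 9.478 scaled CPM, with the other libraries at 6.667 to 7.641, and library 4 of APC-WT tumor 1 read 3.089, with the others at 3.98 to 4.247. For Klrd1, library 2 of APC-WT tumor 1 read 0.7136, with the others at 1.085 to 1.301. For Ncr1, library 6 of APC-WT tumor 1 read 0.5163, with the others at 0.1218 to 0.2332.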

How the results depend on the processing

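The 6 calls of APC-KO tumor 2 over tumor 1 came out as 6 with TMM over all genes, without a filter on low counts, with the library number as a replicate block and, chosen after seeing the data, with the expected background subtracted. DESeq2's Wald test called 5 and gave Klrd1 no adjusted p. Between genotypes the 5 calls became 8 with DESeq2's Wald test (73.8% of all genes called higher), 5 with limma-voom (80.8%), 4 with the tumor number as a replicate block (31.9%), 3 with a crossed pairing added after seeing the data (33.2%; the tumor numbers correlated at -0.401) and 3 with background subtracted (65.3%), where Gzma reversed to -8.66. They became 0 with TMM over all genes (18648 of 53705 genes had an unadjusted p under 0.05) and 0 with DESeq2's size factors over all genes (14778). Leaving out 1 tumor gave 0 to 9 calls, with Gzmb between -0.10 and 1.42 and Il2rb between -0.40 and 1.31. Under TMM over all genes every change reversed: Cd3e -1.46, Cd3g -0.14, Cd8a -1.68, Gzma -1.12, Gzmb -2.87, Il2rb -3.20, Klrd1 -1.38, Ncr1 -0.15, Nkg7 -1.17 and Prf1 -1.67, with the median expressed gene at -4.0. With DESeq2's size factors these were -1.82, -0.49, -2.07, -1.44, -3.25, -3.62, -1.76, -0.42, -1.56 and -2.03, in that order of genes, with that median at -4.42. Between the APC-WT tumors the 10 calls remained 10 with a replicate block, became 4 with TMM over all genes (1 higher, 3 lower) and 3 with background subtracted; under TMM over all genes Cd3e reversed to -0.0193, Cd8a to -0.55, Gzmb to -0.31, Il2rb to -0.98, Klrd1 to -0.41, Nkg7 to -0.39 and Prf1 to -0.0234. The 1 gene above background in APC-KO tumor 1 became 0 at the 99th percentile and 3 with the longest transcript as length. The cause of these shifts was not tested. Genes at the expected background cannot be read as absent at this depth.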
